A study of Mus musculus with 288 samples.

Results

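The genes described here are Gip, which encodes glucose-dependent insulinotropic polypeptide, and 8 genes that are not hormones and whose reads followed Gip between single cells: Entpd3, Moxd1, Pkib, Tekt2, Pdzd3, Fxyd6, Cd44 and Cd24a. They are 9 of the 46078 mouse genes in the count table. They were chosen for their levels in cells with Gip against cells with Gcg, the proglucagon gene, in these same libraries. Their levels in those cells are therefore given as a description, with no test.

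GIP is an incretin, a gut hormone released after a meal that strengthens glucose-dependent insulin secretion. It is the product of enteroendocrine K-cells, which are most numerous in the proximal small intestine, and L-cells process proglucagon to GLP-1. The genes that follow Gip encode proteins of unlike roles: a surface enzyme that removes extracellular ATP, a copper-dependent monooxygenase, an inhibitor of protein kinase A, a filament protein of cilia, a membrane scaffold, a partner of the sodium pump and a pair of surface glycoproteins.

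Single cells were sorted from the upper small intestine of male mice aged 20 to 21 weeks and sequenced by Smart-seq2, a full-length method without molecular identifiers. By the study's methods the mice were GLU-Venus animals on a C57BL6 background, in which the proglucagon promoter drives the fluorescent protein Venus, and fluorescent as well as non-fluorescent control cells were collected. All cells carry the same label, L-cells, and the labels name 3 pools of 96 cells each (SLX-11175, SLX-11179 and SLX-9703) but neither the mouse nor the fluorescence of a cell. By the methods 3 mice were used, 2 of them sequenced shallowly and 1 deeply, and by depth there were likewise 2 shallow pools and 1 deep pool. Cells were thus grouped by their own reads, and the K-cell character of a group rests on Gip alone.

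Of 288 cells, 250 had at least 20000 reads on mouse genes and at most 20% of them mitochondrial. Levels are given as CPM, the count of a gene scaled to all reads on mouse genes in the same cell or sum. A cell was called a Gip cell from 10000 CPM of Gip upwards if Gcg was under 10000 CPM, and there were 10, 5 and 10 of them in the pools as listed above. Gip/Gcg cells had at least 10000 CPM of both hormones and numbered 2, 1 and 1. Gcg cells had at least 10000 CPM of Gcg and under 1000 CPM of Gip and numbered 17, 18 and 17. The 165 cells with neither were all others under 1000 CPM of Gip, and 4 cells with Gip between 1000 and 10000 CPM were in no class. Reads per cell ran from 21345 to 504833 in SLX-11175, from 20121 to 779919 in SLX-11179 and from 319966 to 4368674 in SLX-9703. In a cell of median depth a single read was therefore worth 19, 14.1 and 0.506 CPM in these pools, and a gene without a read in a shallow cell may still have been expressed there. Cells are not replicates, so reads were summed per pool and class, and errors are the SD over the 3 pools.

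In the summed Gip cells, Gip stood at 281033, 444691 and 379320.0 CPM in SLX-11175, SLX-11179 and SLX-9703, a large share of all mouse gene reads. In the summed Gcg cells Gip stood at 37, 70.7 and 29.7 CPM, and 43 of 52 Gcg cells had at least 1 Gip read. Gcg stood at 64.2, 37.6 and 192 CPM in the Gip cells. Each hormone was thus read at a low level in cells of the other class, far below the threshold. Gip was also read in 132 of the 165 cells with neither, at 29.5, 53.7 and 82.3 CPM in their sums. Of these cells, 34 had under 100 CPM of Pzp and of the granins Chga plus Chgb. Among those 34, Gip was read in 21 and Gcg in 23. Such low levels were thus not particular to the Gip and Gcg cells, and their source was not tested. The cells nearest the Gip threshold were a cell at 10822 CPM on the inside and a cell at 9169 CPM on the outside. The cell just inside, from SLX-9703 with 634327 reads, had a read of each of the 8 genes, between 1.58 and 86.7 CPM. Entpd3, Moxd1, Pkib and Tekt2 had 1 read each in it. The cell just outside, from SLX-11179 with 57912 reads, had 414 CPM of Moxd1, 328 CPM of Pkib and 104 CPM of Tekt2.

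The promoters of 3 of the genes are shown because they hold the letters that stood out when the 250 bases before each start were read. RefSeq (GRCm38.p6) gave 11 such windows for 8 of the 9 genes. In Gip (chr11:96024295-96024544, plus strand) capitals mark AGATAA, the letters that GATA factors bind. In Pkib (chr10:57645619-57645868, plus strand, the second start) and Tekt2 (chr4:126325689-126325938, minus strand, the most upstream start) capitals mark GTTGCNNNGCAAC, the palindrome of the X-box that RFX factors bind. Each sequence runs 5′ to 3′ and ends at the base before the start.
Gip: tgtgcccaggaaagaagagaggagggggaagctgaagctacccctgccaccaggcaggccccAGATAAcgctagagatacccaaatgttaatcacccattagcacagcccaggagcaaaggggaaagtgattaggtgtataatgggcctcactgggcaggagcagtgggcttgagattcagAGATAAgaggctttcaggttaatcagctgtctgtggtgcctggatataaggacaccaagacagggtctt
Pkib: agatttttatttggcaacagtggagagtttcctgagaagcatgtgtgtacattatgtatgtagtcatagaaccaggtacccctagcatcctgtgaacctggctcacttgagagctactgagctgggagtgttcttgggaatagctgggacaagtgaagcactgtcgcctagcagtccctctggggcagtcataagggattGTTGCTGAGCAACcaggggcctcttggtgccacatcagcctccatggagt
Tekt2: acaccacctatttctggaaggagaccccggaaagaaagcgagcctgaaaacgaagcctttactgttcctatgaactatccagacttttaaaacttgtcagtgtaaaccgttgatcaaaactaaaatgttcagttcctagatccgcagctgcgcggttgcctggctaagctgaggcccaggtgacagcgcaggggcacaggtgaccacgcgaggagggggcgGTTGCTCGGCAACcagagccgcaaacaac
The palindrome, which reads the same on both strands, occurred in 68 of 32851 promoter windows of this length, or 0.207%. It lay 50 to 38 bases before the Pkib start as GTTGCTGAGCAAC and 29 to 17 bases before the Tekt2 start as GTTGCTCGGCAAC. AGATAA on either strand occurred in 9.99% of windows, and Gip had it at 188 to 183 and at 69 to 64 bases before its start. Single copies of AGATAA lay before the first Pkib start and before the Cd44 start. Neither TAATTA, a homeodomain core found in 4.84% of windows, nor TGACGTCA, the cyclic AMP response element found in 1.55%, was present before any of the 8 genes. The E-box CAGCTG, found in 13% of windows and left in lower case above, lay before Gip, Tekt2 and Pdzd3. These matches describe letters and not binding, and the X-box letters were chosen after the sequences had been seen.

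Entpd3 (chr9:120539818-120568327) encodes ectonucleoside triphosphate diphosphohydrolase 3, which splits ATP and ADP at the cell surface. Its level in the summed Gip cells was 78.5, 44.8 and 86.8 CPM in SLX-11175, SLX-11179 and SLX-9703, or 70.02 ± 22.3 CPM (SD, n = 3 pools). In the Gcg cells it was 0.861, 0 and 1.12 CPM, and in the cells with neither 0, 0 and 0.0289 CPM. Every pool of Gip cells was thus above every pool of Gcg cells and of cells with neither. The ratio of Gip over Gcg cells was 77.8 in SLX-9703, with a 95% counting interval of 58.6 to 105. In SLX-11175 it was 91.2 with an interval of 15.3 to 3708, since the Gcg cells had a single read, and in SLX-11179 it was at least 23.8, taking 3 reads as the floor of the Gcg sum. These intervals cover counting error only.

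Among single cells, 21 of 25 Gip cells had an Entpd3 read (84%, exact binomial interval 63.9 to 95.5%), against 3 of 52 Gcg cells and 3 of 165 cells with neither. After each cell was thinned to 20000 reads, the share was 60% of Gip cells, 1.92% of Gcg cells and 0 of 165 cells with neither. Among the cells that passed the read and mitochondrial limits, none outside the Gip and Gip/Gcg classes exceeded 17.1 CPM. This is below the median of the Gip cells, 46.8 CPM.

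The other genes of extracellular nucleotides were not called by edgeR between Gip and Gcg cells. Of 18 measured genes for nucleotide hydrolysis and purine receptors besides Entpd3, 0 were higher and 0 lower in Gip than in Gcg cells by edgeR's quasi-likelihood test at an FDR of 0.05, while 4 were higher and 2 lower at an unadjusted p under 0.05, and DESeq2 called 2 higher and 0 lower. Over all 14697 genes tested, edgeR called 0.218% higher, 0.408% lower and 0.626% in either direction. Of these genes 2016 had an unadjusted p under 0.05 by edgeR in either direction, and DESeq2 called 289 higher and 458 lower. These numbers over all genes apply to every list compared between Gip and Gcg cells below. The nearest relatives that were read in both classes were Entpd5, at a mean of 108 CPM in Gip and 58.8 CPM in Gcg cells (log2 fold change 1.33 ± 0.45 SE, edgeR adjusted p = 0.245), and Entpd8, at 46.5 and 21.9 CPM (2.14 ± 0.90, edgeR adjusted p = 0.325). Entpd2, the ecto-ATPase, was at 0.922 and 5.03 CPM, and Entpd1 stayed under 1 CPM in both.

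Moxd1 (chr10:24223517-24302790) encodes a relative of dopamine beta-hydroxylase that resides in the endoplasmic reticulum and whose substrate is not known. In the Gip cells it was at 216, 62.7 and 11.7 CPM, a mean of 96.9 ± 107 CPM (SD, n = 3 pools). In the Gcg cells it was at 0, 0 and 0.0223 CPM, the last of which is 1 read. The pools of Gip cells did not overlap those of Gcg cells, but they differed among themselves, with the deep pool the lowest, and relative to its mean the SD was the largest of the 8 genes. In SLX-11175, 80 of the 91 Moxd1 reads in Gip cells came from 1 cell, which held 150855 of the 420453 reads of that sum. The high level of that pool thus rests largely on this cell. The ratio of Gip over Gcg cells was at least 83.8 in SLX-11175, at least 33.4 in SLX-11179 and 522 in SLX-9703 (counting interval 92.3 to 20741).

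Moxd1 was also the member read in the fewest Gip cells, 11 of 25 (44%, interval 24.4 to 65.1%), and only 3 cells outside the Gip and Gip/Gcg classes and inside a class had a read of it. The list of copper-dependent monooxygenases held 1 other tested gene. This was Pam, which amidates peptide hormones, at 165 CPM in Gip cells and 306 CPM in Gcg cells (log2 fold change -0.47 ± 0.41 SE, edgeR adjusted p = 0.66). Dbh itself, which makes noradrenaline, and Moxd2 had 0 reads in the Gip and the Gcg cells.

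Pkib (chr10:57631981-57741112) encodes the beta form of the protein kinase inhibitors, small proteins that bind the catalytic subunit of protein kinase A and block it. Its level was 207, 106 and 151 CPM in the Gip cells, or 154 ± 50.8 CPM (SD, n = 3 pools). It was 6.03, 0 and 0.0447 CPM in the Gcg cells and 3.39, 0.167 and 0.289 CPM in the cells with neither. In SLX-11175 the ratio of Gip over Gcg cells was 34.3 (counting interval 16 to 87.9), in SLX-11179 at least 56.3, and in SLX-9703 it was 3373 over 2 reads in the Gcg cells (interval 933 to 27869). The differing sizes thus came mainly from a few reads in the Gcg cells. In SLX-11175, 63 of the 87 Pkib reads in Gip cells came from the cell that also held most of that pool's Moxd1 reads.

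A Pkib read was found in 19 of 25 Gip cells (76%, interval 54.9 to 90.6%), in 5 of 52 Gcg cells and in 10 of 165 cells with neither. Its highest level in the Gcg cells and the cells with neither was 47.3 CPM, from 5 reads in a Gcg cell, below the median Gip cell at 88.1 CPM. The cell in no class at 9169 CPM of Gip was above that median, with 328 CPM of Pkib. Other members of the kinase A pathway were not called by edgeR between Gip and Gcg cells. Of 33 measured genes for its catalytic, regulatory, anchoring and inhibitor proteins, 0 were called in either direction by edgeR, 2 were higher and 2 lower at an unadjusted p under 0.05, and DESeq2 called 0 higher and 1 lower. Pkia, the alpha form of the inhibitor, was at 17.6 and 17.4 CPM in Gip and Gcg cells, and Pkig, the gamma form, at 17.4 and 32.6 CPM (edgeR adjusted p = 0.741 and 0.819).

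**Figure D1:**
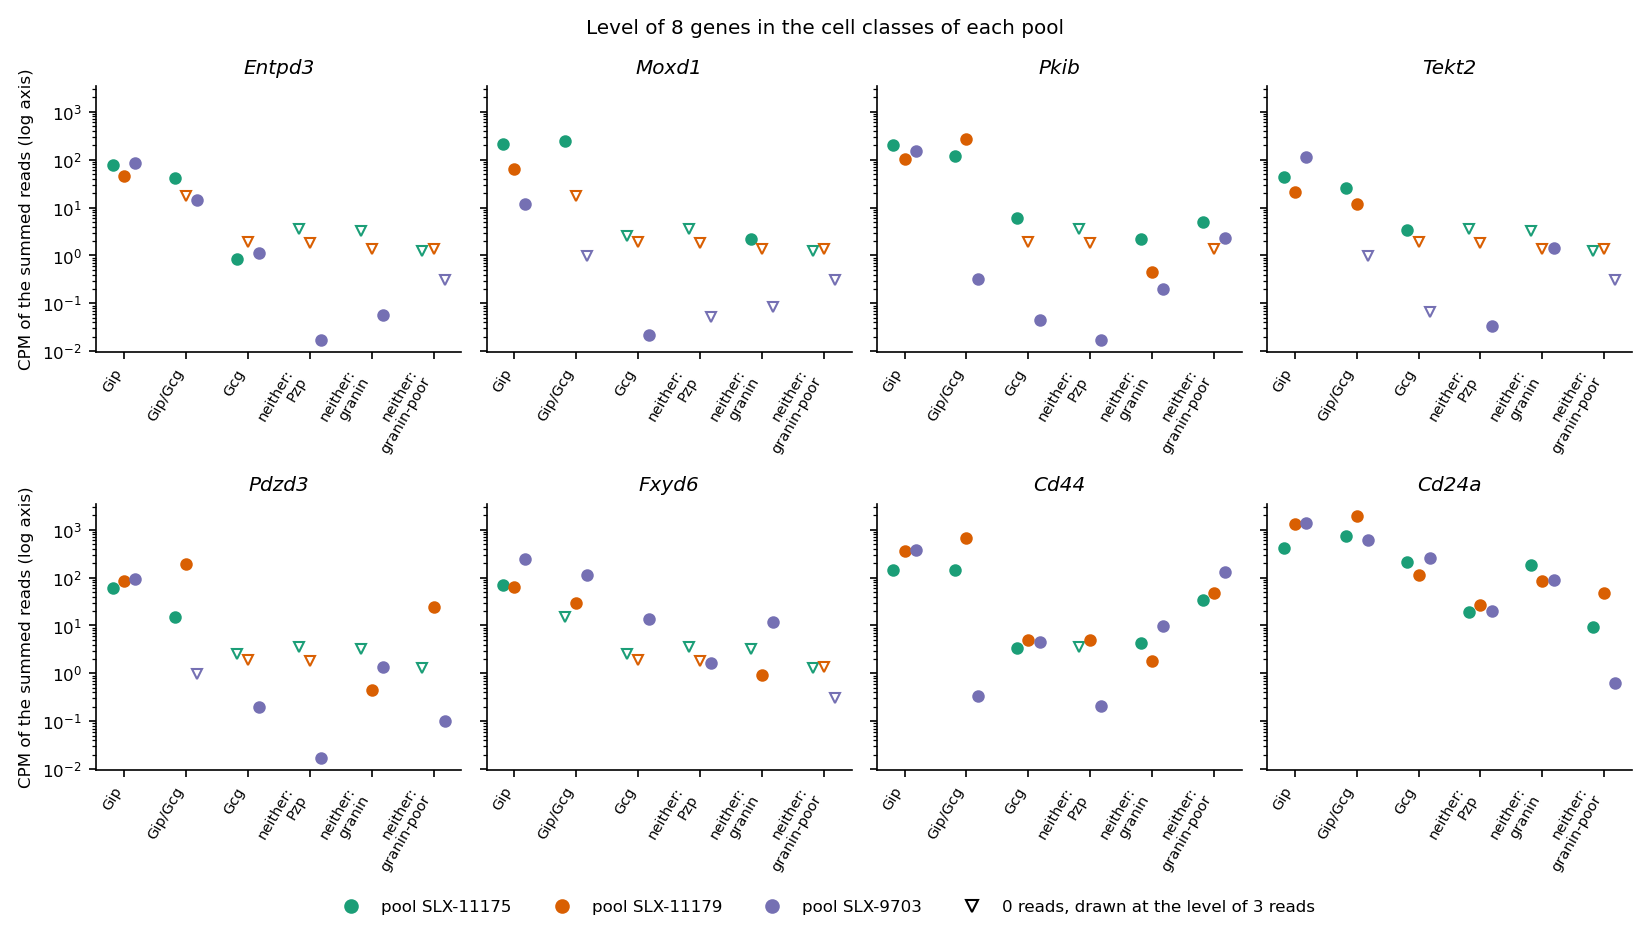
Level of each of the 8 genes in the reads summed per pool and class, in CPM on a log axis. Filled points are the pools (by colour), and open triangles are sums with 0 reads, drawn at the level of 3 reads. Cells with neither are divided into those with at least 100 CPM of Pzp, those with at least 100 CPM of the granins Chga and Chgb, and granin-poor cells. For each gene the 3 sums of Gip cells lie above the 3 sums of Gcg cells, and the gap is narrowest for Cd24a.

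Pdzd3 (chr9:44247307-44251471) encodes a PDZ-domain scaffold of the NHERF family that binds the tail of the intestinal guanylyl cyclase C. Its level was 61.8, 84.1 and 93.1 CPM in the Gip cells, or 79.7 ± 16.1 CPM (SD, n = 3 pools), the smallest relative spread of the 8 genes. It was 0, 0 and 0.201 CPM in the Gcg cells. The ratio was at least 23.9 and at least 44.8 in the shallow pools and 463 in SLX-9703 (counting interval 243 to 1015). It was read in 16 of 25 Gip cells (64%, interval 42.5 to 82%) and in 1 of 52 Gcg cells.

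The partners of Pdzd3 were not called between Gip and Gcg cells. Of 9 measured NHERF scaffolds and partners, 0 were called by edgeR or by DESeq2 between Gip and Gcg cells, and 0 were higher and 1 lower at an unadjusted p under 0.05. Gucy2c, which encodes guanylyl cyclase C, was at 105 CPM in Gip and 250 CPM in Gcg cells (log2 fold change -0.92 ± 0.54 SE, edgeR adjusted p = 0.488). Slc9a3r1, which encodes NHERF1, was at 58.5 and 115 CPM (-0.59 ± 0.48, edgeR adjusted p = 0.637). Against cells with neither, edgeR called 1 of the 9 higher, Prkg2, a kinase activated by cyclic GMP (log2 fold change 3.57 ± 0.78 SE, edgeR adjusted p = 0.0473), and DESeq2 called 1 higher and 1 lower. Of all 14697 genes tested against cells with neither, edgeR called 0.408% higher and 1.08% lower, and DESeq2 called 260 higher and 557 lower.

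Fxyd6 (chr9:45370185-45396159) encodes a small membrane protein of the FXYD family, whose members bind the sodium pump and tune its affinity for ions. It was at 71.4, 62.7 and 242 CPM in the Gip cells, or 125 ± 101 CPM (SD, n = 3 pools), and at 0, 0 and 13.6 CPM in the Gcg cells. The ratio was at least 27.6 in SLX-11175, at least 33.4 in SLX-11179 and 17.7 in SLX-9703 (counting interval 16.2 to 19.3). Of the Gip cells 17 of 25 had a read (68%, interval 46.5 to 85.1%), against 4 of 52 Gcg cells. All 4 of these Gcg cells were in the deep pool, and 565 of its 611 reads in Gcg cells came from 1 cell at 186 CPM. Among the Gip cells of SLX-11175, 25 of the 30 Fxyd6 reads likewise came from 1 cell.

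The sodium pump and the other FXYD genes did not pass edgeR's test between Gip and Gcg cells. Among 7 of them edgeR called 0 in either direction, 0 were higher and 2 lower at an unadjusted p under 0.05, and DESeq2 called 0 higher and 1 lower. Fxyd3 was the other FXYD gene with a clear level and lay on the opposite side, at 25.6 CPM in Gip and 129 CPM in Gcg cells (log2 fold change -1.90 ± 0.61 SE, edgeR adjusted p = 0.21). Fxyd2 was at 0.621 and 10.6 CPM.

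Tekt2 (chr4:126322121-126325688) encodes a tektin, a filament protein that lies along the microtubules of motile cilia and sperm tails. It was at 42.8, 21.5 and 114 CPM in the Gip cells, or 59.3 ± 48.3 CPM (SD, n = 3 pools), and at 3.44, 0 and 0 CPM in the Gcg cells. Its ratio of Gip over Gcg cells was 12.4 in SLX-11175 (counting interval 4.09 to 50.5), at least 11.4 in SLX-11179 and at least 1697 in SLX-9703. All 4 Gcg-cell reads came from 1 cell, and 15 of 25 Gip cells had a read (60%, interval 38.7 to 78.9%). In SLX-11175 only 2 of the 10 Gip cells had a read, and 17 of their 18 reads came from 1 cell. The ratio of that pool thus rests almost wholly on 1 cell of each class. The 10 deep Gip cells all had one, from 1.05 to 815 CPM. Tekt2 shares sequence with Gm12945 on the other strand, and these reads carry no strand, so part of its count could belong to that gene.

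Other ciliary genes were not called between Gip and Gcg cells. Of 11 measured tektins and axoneme genes, edgeR and DESeq2 called 0 between Gip and Gcg cells, with 1 higher and 0 lower at an unadjusted p under 0.05. Tekt4 was at 0.777 and 4.25 CPM. Foxj1, the regulator of motile cilia, had a read in 1 of the 3 sums of Gip cells (1.79 CPM in SLX-11179) and none in the Gcg cells. Dnah9, an axonemal dynein heavy chain, is named for its correlation with Gip over these same cells, by which it was at rank 3. It was at 21.4, 57.3 and 62.8 CPM in the Gip cells and at 9.47, 5.0 and 0.447 CPM in the Gcg cells. The difference did not pass the test (log2 fold change 4.28 ± 1.20 SE, edgeR adjusted p = 0.156). Since Dnah9 was picked for following Gip, its higher level in Gip cells is a description and supports nothing further about ciliary genes.

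Cd44 (chr2:102811141-102901665) encodes the receptor for hyaluronan, a surface glycoprotein also carried by leukocytes and by cells of the intestinal crypt. It was at 145, 354 and 373 CPM in the Gip cells, or 291 ± 127 CPM (SD, n = 3 pools), and at 3.44, 5.0 and 4.62 CPM in the Gcg cells. The ratio of Gip over Gcg cells was 42.1, 70.8 and 80.8 in the same order of pools. The counting intervals overlap (15.6 to 159.5, 35.3 to 166 and 70.3 to 93.3). It was read in 24 of 25 Gip cells (96%, interval 79.6 to 99.9%), in 12 of 52 Gcg cells and in 44 of 165 cells with neither. It was the gene read in most Gip cells. In SLX-11179, 164 of the 198 Cd44 reads in Gip cells came from 1 cell at 749 CPM. Gm23731 lies within Cd44 on the other strand.

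Cd24a (chr10:43578284-43584265) encodes a small, heavily glycosylated protein anchored to the outer membrane, a marker of several immature and secretory cells of the gut. It was at 407, 1310.4 and 1377 CPM in the Gip cells, or 1031 ± 542 CPM (SD, n = 3 pools), at 216, 116 and 259 CPM in the Gcg cells and at 48.9, 54.8 and 42.3 CPM in the cells with neither. The ratio of Gip over Gcg cells was 1.88 in SLX-11175 (counting interval 1.54 to 2.29), 11.3 in SLX-11179 (9.62 to 13.4) and 5.31 in SLX-9703 (5.19 to 5.44). The intervals do not overlap, but they treat reads as independent molecules and are therefore too narrow. In SLX-11179, 598 of the 732 Cd24a reads in Gip cells came from 1 cell at 2733 CPM. The median of the 5 Gip cells there was 417 CPM. Unlike the other 7 genes, Cd24a was read in most Gcg cells, 36 of 52, and the classes were graded rather than set apart.

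Markers of the cells that are best known for Cd44 and Cd24a were summed in the same way. Ptprc, the leukocyte antigen CD45, had 1 read in 1 of 25 Gip cells. Of 20 immune markers 7 had 0 reads in Gip cells, among them Cd3d, Cd8a, Cd79a and Lyz2, and the summed level of the list was 50.5 to 347 CPM in the pools of Gip cells and 186 to 203 CPM in those of Gcg cells, so that the ranges overlapped. Cd8a, Cd79a and Neurog3 were at 0 in the Gcg cells as well, in which 14 of the 20 immune markers had a read. The stem and progenitor list stood at 61.8 to 295 CPM in Gip and 107 to 256 CPM in Gcg cells, with Ascl2, Neurog3 and Mki67 at 0 in the Gip cells. Neither list had a gene called between Gip and Gcg cells by edgeR, although 1 of 17 immune genes and 1 of 13 stem and progenitor genes were higher at an unadjusted p under 0.05 and as many lower, and DESeq2 called 0 immune genes, and 1 stem and progenitor gene higher and 2 lower. Of 16 measured partners of CD44 and enzymes of hyaluronan edgeR called 0, with 0 higher and 1 lower at an unadjusted p under 0.05, and DESeq2 called 0 higher and 1 lower. Has1, Has2 and Has3, which make hyaluronan, were all under 1 CPM in Gip and Gcg cells.

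For all 8 genes every pool of Gip cells exceeded every pool of Gcg cells. This held for 1.8% of all genes tested, and it is the property by which the 8 were chosen. Every pool of Gip cells also exceeded every pool of cells with neither for all 8, against 1.97% of all genes. The 8 were chosen for their levels in these same Gip cells, so this too is a description and supports nothing further. Between Gip cells and cells with neither edgeR called 0.408% of all genes higher, 1.08% lower and 1.48% in either direction. The median of the 8 log2 ratios of Gip over Gcg cells was 5.96, with any sum under 3 reads set to 3, so that it is in part a lower bound. The median log2 fold change over all tested genes was -0.22 in edgeR's fit, which scales the sums in another way and sets no such floor. When CPM were computed outside the reads of Gip and Gcg, so that the large share of Gip could not press down the other genes, the median of the 8 was 6.44. With each cell thinned to 20000 reads the median was lower, as given in the last section. Moxd1 then stood at 2.24 instead of 6.30, and Cd44 at 4.44 instead of 5.96.

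**Figure D2:**
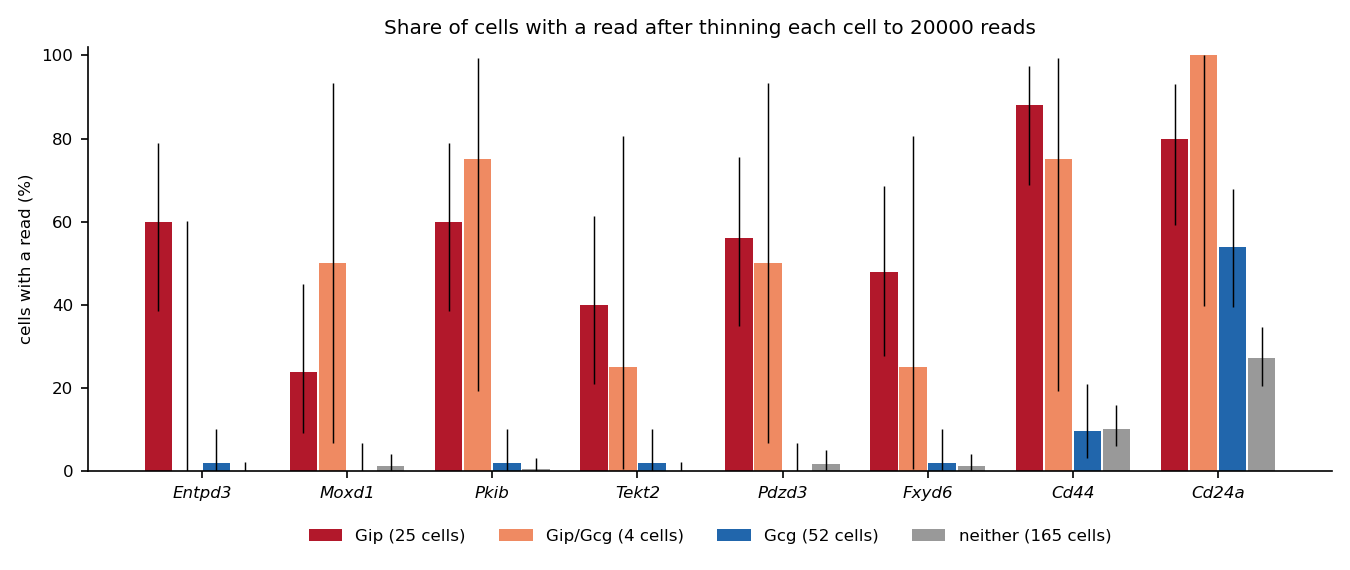
Share of cells with at least 1 read of each of the 8 genes after thinning each cell to 20000 reads, in percent, in Gip, Gip/Gcg and Gcg cells and cells with neither over all pools. Lines are exact 95% binomial intervals that cover counting error only. The share in Gip cells runs from 24% for Moxd1 to 88% for Cd44, and in Gcg cells it stays under 10% for all but Cd24a (53.8%).

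The 4 cells with both hormones carried the genes of the Gip cells in unequal parts. A cell of SLX-11175 with 36405 CPM of Gip and 53174 CPM of Gcg had 608 CPM of Moxd1, 133 CPM of Pkib, 266 CPM of Cd44 and 646 CPM of Cd24a. The second cell of that pool, with 202354 CPM of Gip and 17954 CPM of Gcg, had reads of all but Fxyd6. In these cells the followers of Gip were thus read beside a high level of Gcg.
The cell of SLX-11179, with 22882 CPM of Gip and 28681 CPM of Gcg, had the highest Pkib (267 CPM), Pdzd3 (189.5 CPM), Cd44 (663 CPM) and Cd24a (1931 CPM) of the 4 cells. The deep cell of SLX-9703 had 11717 CPM of Gip and 135588 CPM of Gcg. Its Pkib and Cd44 were at 0.33 CPM, or 1 read each, and it had 0 reads of Moxd1, Tekt2 and Pdzd3 among 3034855. It did have 113 CPM of Fxyd6, 604 CPM of Cd24a and 14.2 CPM of Entpd3. This cell thus had at most 1 read of 5 of the 8 genes. Of the 4 cells it had the most Gcg and the least Gip and was the only deep one, and these cannot be told apart in 1 cell.

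Over the 3 pools the mean level in Gip/Gcg cells was 128 ± 133 CPM for Pkib, 270.4 ± 348 CPM for Cd44 and 1091 ± 731 CPM for Cd24a (SD, n = 3 pools, each of 1 or 2 cells). For Pkib, Cd44 and Cd24a each of the 4 cells had a read, and for each of the other 5 genes 2 of the 4 cells did. Only SLX-11175 gave a sum of 2 cells, so Gip/Gcg cells were not tested against Gcg cells. Of the 4 cells with Gip between 1000 and 10000 CPM, those with at least 10000 CPM of Gcg, both in SLX-9703, had 0 reads of Entpd3, Moxd1, Tekt2, Pdzd3 and Cd44. One of them had 40.3 CPM of Fxyd6, 110 CPM of Cd24a and a single Pkib read, and the other had 15.9 CPM of Cd24a. At 2560 CPM of Gip, a cell of SLX-11179 with 84.9 CPM of Gcg had 368 CPM of Cd44.

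**Figure D3:**
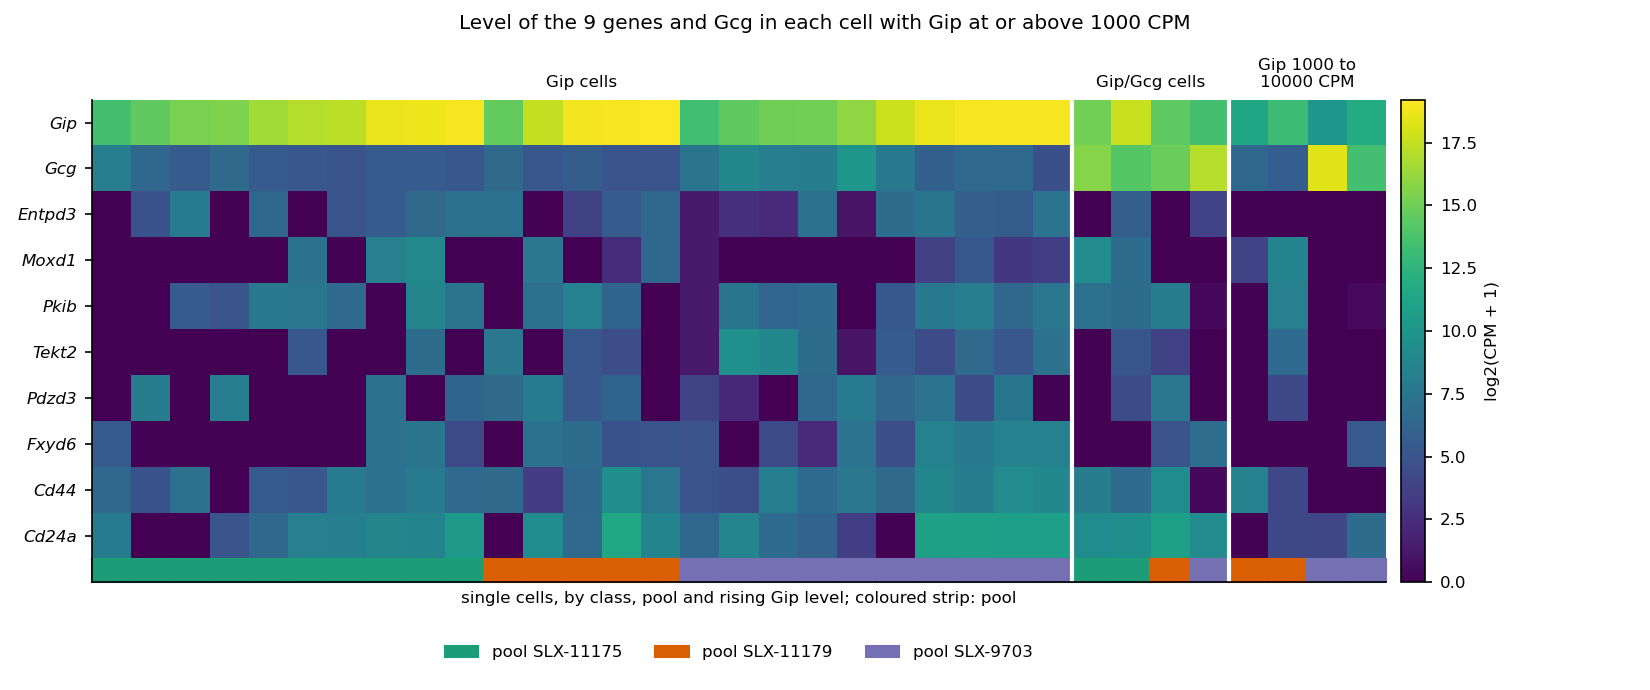
Level of Gip, Gcg and the 8 genes, as log2(CPM + 1) by colour, in each cell with at least 1000 CPM of Gip. Columns are cells, ordered by class, pool (coloured strip) and rising Gip level, and the darkest colour is 0 reads. Moxd1 is read mainly in the Gip cells of each pool with the most Gip, while the highest Tekt2 lies in cells of SLX-9703 with less Gip.

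Within the Gip cells the genes differed in how they went with the amount of Gip. For this description the 25 cells were divided at 100000 CPM, a level also used as an alternative threshold. Moxd1 was read in 10 of the 14 cells above it and in 1 of the 11 below. Fxyd6 was read in 12 and 5 of them, Cd24a in 13 and 8, and Pkib in 12 and 7. For Entpd3, Cd44, Pdzd3 and Tekt2 the numbers were 12 and 9, 14 and 10, 9 and 7, and 9 and 6. Among Gip cells Moxd1 was thus read mainly in those richest in Gip, while Entpd3, Pdzd3 and Tekt2 were read about as often in both. This did not extend to the cells outside that class, since the 608 CPM of Moxd1 in a Gip/Gcg cell lay at 36405 CPM of Gip and the 414 CPM of the cell in no class at 9169 CPM.
The cells above 100000 CPM were also deeper, with a median of 139042 reads against 36315, and the part of depth in these counts was not tested. In the deep pool, in which every cell had at least 319966 reads, Moxd1 was read in 4 of 5 cells above and 1 of 5 below, the latter with a single read, and Fxyd6 was at a median of 344 CPM above and 19.3 CPM below.

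Levels were also compared with the reads of Gip and Gcg themselves left out of the total. Over all pools the median Cd24a level was then 937 CPM in the cells above 100000 CPM of Gip and 72.6 CPM in those below. Median Cd44 was 371 and 87.3 CPM, and for Cd24a and Cd44 the order was the same within each pool. Median Entpd3 was 112 and 5.08 CPM, but in SLX-11179 it was 58.2 CPM in the 4 cells above and 149 CPM in the single cell below. Tekt2 had no single direction. Over all mouse gene reads, its highest levels in the deep pool, 815 and 497 CPM, were in cells with 23648 and 33640.1 CPM of Gip. The 5 deep cells above 100000 CPM of Gip lay between 20.1 and 154.5 CPM of Tekt2. Its correlation with Gip within the Gip cells was nevertheless 0.22 in that pool, and 0.40 in SLX-11175 and -0.42 in SLX-11179. Of the deep Gip cells, 4 of the 5 below 100000 CPM of Gip and 1 of the 5 above it had under 750000 reads, so that depth and the amount of Gip went together in this pool too.

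**Figure D4:**
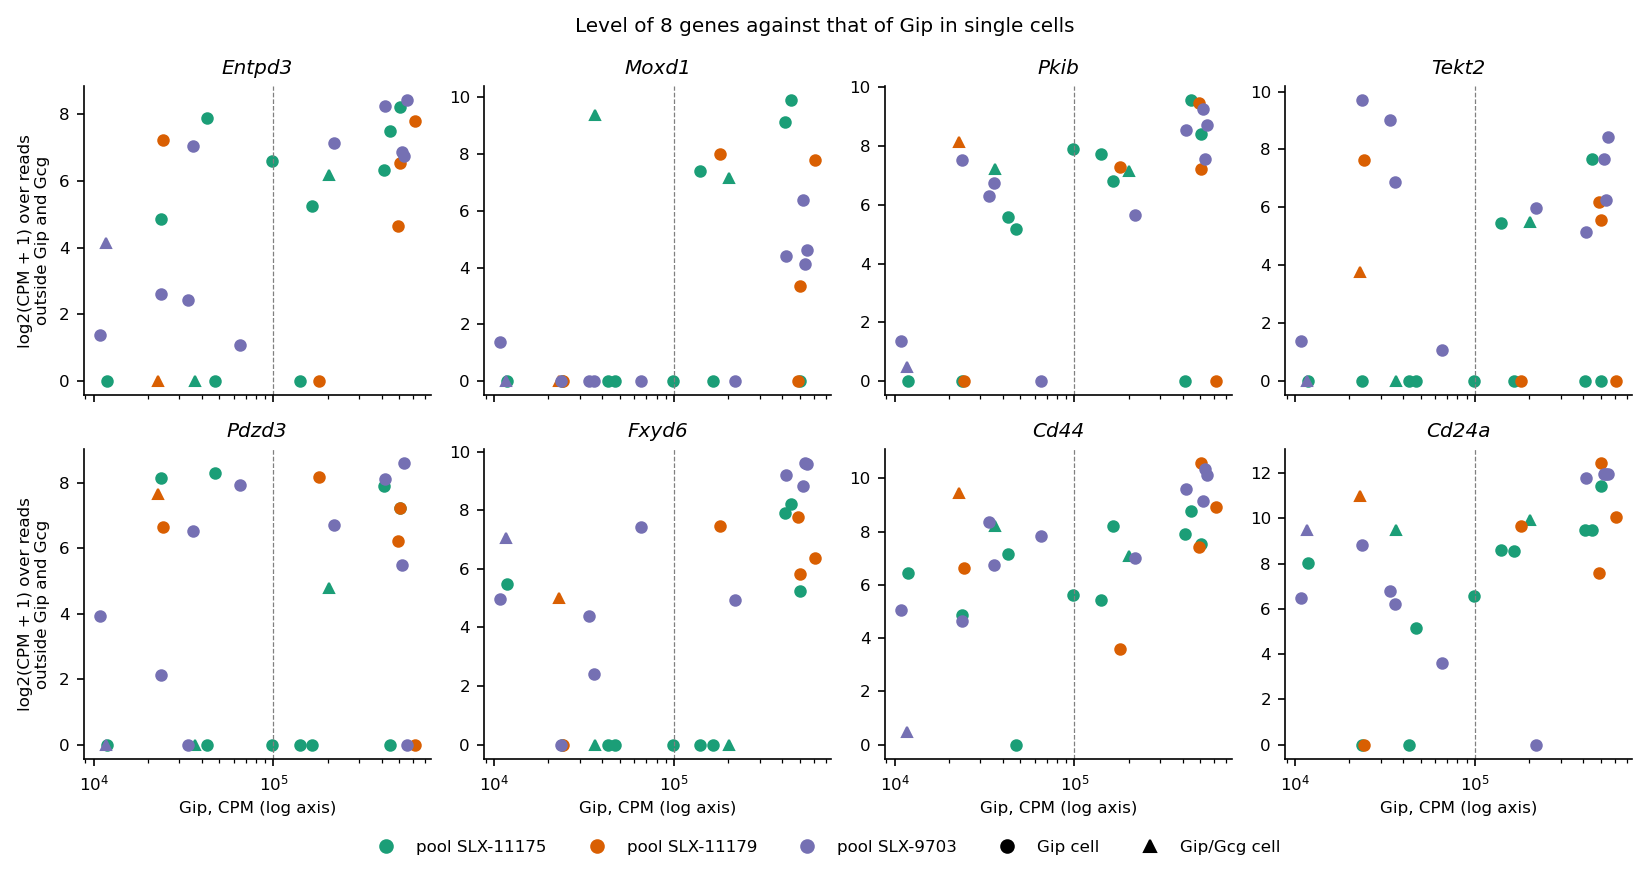
Level of each of the 8 genes, as log2(CPM + 1) over the reads outside Gip and Gcg, against Gip in CPM on a log axis, in the 25 Gip cells (circles) and the 4 Gip/Gcg cells (triangles), coloured by pool. The dashed line marks 100000 CPM of Gip, to the right of which lie 10 of the 11 Gip cells with a Moxd1 read.

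The number of the 8 genes read in a single cell varied within each class. A Gip cell had reads of a median of 6 of the 8 genes (3 to 8), a Gip/Gcg cell 5.5 (4 to 7), and a Gcg cell or a cell with neither 1 (0 to 3 and 0 to 4). Leaving out Cd44 and Cd24a, which other cells also carry, at least 3 of the remaining 6 were read in 19 of 25 Gip cells and 3 of 4 Gip/Gcg cells, and in 0 of 52 Gcg cells and 0 of 165 cells with neither. With 3 cells as the limit that a count of 0 allows, these zeros allow a share of up to 5.77% and 1.82%. After thinning to 20000 reads the numbers were 13, 1, 0 and 0. Since the genes were chosen for their levels in these classes, the counts describe the cells and support nothing further.
Between pairs of genes in Gip cells the pools did not always go the same way. Entpd3 and Cd44 had a correlation of log2(CPM + 1) of 0.64, 0.80 and 0.62 in SLX-11175, SLX-11179 and SLX-9703, over 10, 5 and 10 cells. Moxd1 and Fxyd6 had 0.60, 0.47 and 0.79, but Tekt2 and Pdzd3 had -0.40, 0.42 and -0.54. These are descriptions over few cells that share a library and depth.

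Outside the cells with Gip, reads of the 8 genes lay in cells of several kinds, which were looked up after the values had been seen. Cd44 was at 34.7, 48.1 and 128 CPM in the 34 cells with neither that were poor in granins, the chromogranin cargo of endocrine vesicles, and at most 9.56 CPM in each pool of the other cells with neither. Its highest level, 485 CPM, was in a deep cell with 1150.0 CPM of Ptprc and 833 CPM of the proliferation marker Mki67. Over cells without Gip, 14 of 23 with at least 2000 CPM of immune markers had a Cd44 read, against 42 of 194 with less. A cell with 303 CPM of Cd44 was of another kind, with 60551 CPM of Sct, 44598 CPM of Cck and 0 reads of Ptprc.
Pdzd3 reached 303 CPM, from 53 reads, in a granin-poor cell of SLX-11179 with 15751 CPM of enterocyte markers. In all, 8 of the 144 cells without Gip that had at least 2000 CPM of enterocyte markers carried a Pdzd3 read, against 1 of 73 with less. In the deep pool alone the numbers were 5 of 60 and 1 of 15. In the Gip cells the same list stood at 880 to 1907 CPM over the pools, below the 2652 to 4850 CPM of the Gcg cells, in which Pdzd3 was nearly absent.

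In the Gcg cells and the cells with neither, Fxyd6 reads were counted by the level of Cck, the cholecystokinin gene of I-cells. Fxyd6 was read in 10 of 100 cells with at least 100000 CPM of Cck and in 3 of 117 with less. In the deep pool alone the numbers were 9 of 41 and 3 of 34. The Gcg cell at 186 CPM of Fxyd6 had 169308 CPM of Cck. Gip cells, by contrast, had Cck at 435, 10109 and 3262 CPM, against 120702 to 145297 CPM in the Gcg cells.
In the Gcg cells and the cells with neither, Cd24a peaked at 1093 CPM in a cell of SLX-11175 with 182572 CPM of Nts, the neurotensin gene. Of these cells 17 lay above the median Gip cell. Entpd3 and Pkib had 0 such cells, Tekt2 and Pdzd3 2 each, Fxyd6 4 and Cd44 6. Moxd1 has no such number because its median Gip cell was at 0.

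Over all 250 cells, genes were ranked by the correlation of their log2(CPM + 1) with that of Gip within each pool, averaged over the 3 pools, among 10773 genes read in at least 5 cells of each pool. Pkib was the first of them with a mean correlation of 0.656. Moxd1 was at rank 7 (0.56), Pdzd3 at 8 (0.559), Cd44 at 10 (0.554) and Cd24a at 36 (0.313). By Spearman's rho the values were lower and the ranks 4 for Pkib (0.391), 10 for Moxd1, 11 for Pdzd3, 9 for Cd44 and 122 for Cd24a. Entpd3, Tekt2 and Fxyd6 could not be ranked, since each was read in only 4 cells of a shallow pool. The cells of a pool share its library preparation and vary in depth, and these values carry no test.
Other genes among the 10 most like Gip were Scarb1 (0.635), Dnah9 (0.592), Cnr1 (0.574), Th (0.572), Rfx6 (0.566) and Rgs4 (0.559). Scarb1 encodes a lipoprotein receptor, Cnr1 the cannabinoid receptor CB1, Th tyrosine hydroxylase and Rgs4 a regulator of G-protein signalling. Rfx6 encodes an RFX factor of endocrine cells. From rank 4 to rank 10 the mean ran only from 0.574 to 0.554, a range narrower than that between the pools of any of these genes.

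**Figure D5:**
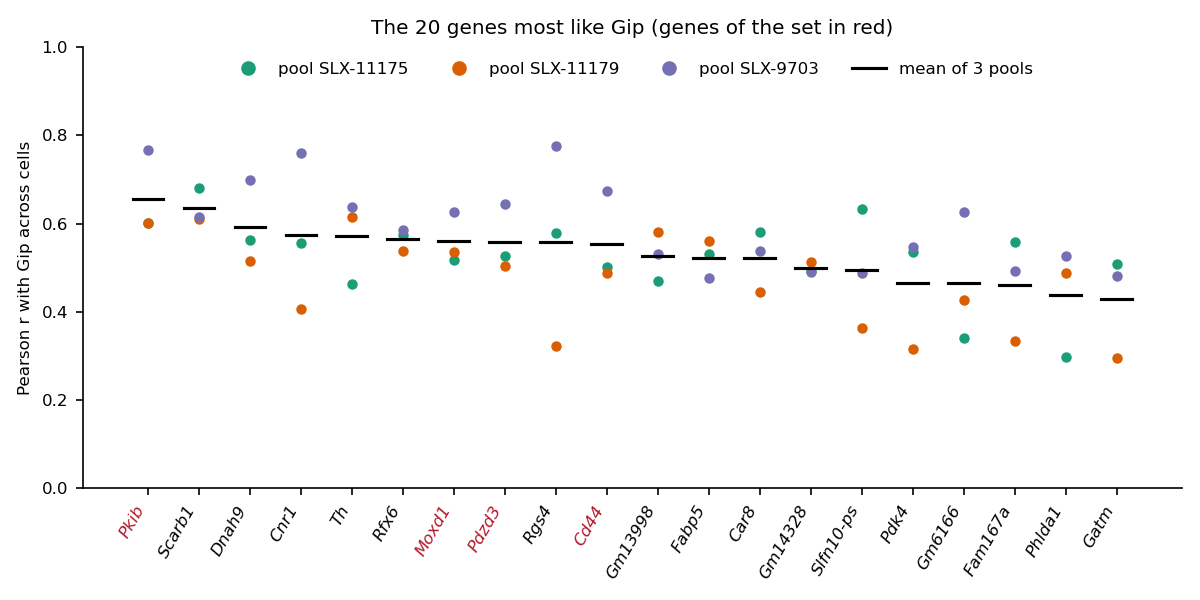
Pearson correlation with Gip of log2(CPM + 1) across the passed cells of each pool (points) and its mean over the 3 pools (bars), for the 20 genes with the highest mean, the genes of the set in red. Pkib is first at 0.656, and Moxd1, Pdzd3 and Cd44 follow at ranks 7, 8 and 10.

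Among genes outside the set, those of the K-cell list were called in part. Of 25 measured genes reported for K-cells, 4 were higher and 1, Neurod1, was lower in Gip than in Gcg cells by edgeR at an FDR of 0.05, against 0.218% and 0.408% of all genes tested. The study named Fabp5, Cnr1, Scarb1, Adora3 and Lpl of this list for its Gip cluster in these same cells. The list was thus partly drawn from these data, and its share of called genes is a description. At an unadjusted p under 0.05 the numbers were 7 higher and 6 lower, and DESeq2 called 6 higher and 3 lower. Over all 14697 genes, 2016 had an unadjusted p under 0.05 by edgeR in either direction, and DESeq2 called 289 higher and 458 lower. Fabp5, a fatty acid binding protein, was at 542, 1140.3 and 1710.4 CPM in the Gip cells and at 25, 14.4 and 41 CPM in the Gcg cells, a log2 fold change of 5.94 ± 0.53 (SE, edgeR adjusted p = 0.000289). Rfx6 was at 438, 209 and 365 CPM against 34.4, 5.0 and 21.0 CPM (4.77 ± 0.54, edgeR adjusted p = 0.00193). Cnr1 changed by 4.67 ± 0.62 (edgeR adjusted p = 0.00517) and Scarb1 by 4.64 ± 0.79 (edgeR adjusted p = 0.0228). Without SLX-11179 the adjusted p of Cnr1 was above 0.05, and so was that of Scarb1 without SLX-11175 and with a Gip threshold of 1000 CPM (edgeR adjusted p = 0.0653). Neurod1, a transcription factor of endocrine cells, was at the threshold (-2.09 ± 0.41, edgeR adjusted p = 0.0483) and was called in 10 of 17 alternatives, and in none of those that left out a pool (edgeR adjusted p 0.0699 to 0.151).
Of the other RFX factors, Rfx2 was at 47.6, 19.7 and 9.32 CPM in the Gip cells and 8.61, 2.50 and 2.72 CPM in the Gcg cells (edgeR adjusted p = 0.279), and Rfx3 at 45.2, 53.7 and 23.8 against 24.1, 37.5 and 19.6 CPM (edgeR adjusted p = 0.459).

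Among hormone and granin genes more were called lower than higher, where the shares of all genes tested were 0.408% and 0.218%. Of 12 tested hormone and amine genes 1 was higher, Th (log2 fold change 7.10 ± 1.10 SE, edgeR adjusted p = 0.0122, above 0.05 without SLX-11179), and 4 were lower, which were Cck, Ghrl, Pyy and Ucn3. At an unadjusted p under 0.05 the numbers were 3 and 4, and by DESeq2 they were 2 and 4. The call of Ucn3 was lost with any 1 pool left out (edgeR adjusted p 0.0666 to 0.084). Of 11 granins and prohormone processing genes 0 were higher and 3, Chga, Chgb and Scg2, were lower, with 1 higher and 6 lower at an unadjusted p under 0.05 and 0 and 4 by DESeq2. Without SLX-11175 the calls of Chga (edgeR adjusted p = 0.0819) and Scg2 (0.0559) were lost, and that of Scg2 also without SLX-11179 (0.13). Chgb, a granin that fills secretory vesicles, was at 659, 2496 and 3720.0 CPM in the Gip cells and 15049.7, 12470.1 and 28821 CPM in the Gcg cells (-2.71 ± 0.37, edgeR adjusted p = 0.00529). With no pool block the edgeR adjusted p was 0.165 for Chgb, 0.24 for Scg2 and 0.0645 for Cck. Of 6 goblet markers edgeR called 0 higher and 1 lower, which was Agr2, a disulfide isomerase of goblet cells (log2 fold change -7.00 ± 0.61, edgeR adjusted p = 0.000289). At an unadjusted p under 0.05 the goblet numbers were 0 and 2, and by DESeq2 they were 0 and 3. Of 15 enterocyte markers edgeR called 0 higher and 2 lower, with 1 higher and 5 lower at an unadjusted p under 0.05 and 1 and 3 by DESeq2. Anpep, a peptidase of the brush border, was at 23.3 ± 17.4 CPM in the Gip cells and 301 ± 27.2 CPM in the Gcg cells (SD, n = 3 pools, log2 fold change -3.32 ± 0.54 SE, edgeR adjusted p = 0.0164, but 0.0852 without SLX-11179). Reg3b, an antimicrobial lectin, was at 0, 0 and 12.1 CPM against 0, 10.6 and 617 CPM (edgeR adjusted p = 0.0202). Its groups overlapped, and its call was lost without SLX-11179, without SLX-9703, with no pool block and with a mitochondrial limit of 10% (edgeR adjusted p 0.0967 to 0.673).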

How the data were processed

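Single-cell libraries of the upper small intestine were made by Smart-seq2 and sequenced on a HiSeq 2500. Raw read counts per gene were deposited for all cells in a single table; per the labels, the submitters' processing notes name GSNAP, HTSeq (0.5.3p3) and the mm10 build. Lines that name no gene held 77.6% of counts and 92 spike-ins 5.34%; both stayed out of library sizes. Ensembl identifiers were paired with symbols through GENCODE M21 (45143 of 46078 matched). The 4 columns that match no label were not used, and no 2 cells held identical values.

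The members and the gene lists were chosen with earlier results of these data known. Cells with at least 20000 mouse gene reads and at most 20% mitochondrial reads were classed by their CPM of Gip and Gcg. Reads were summed per pool and class where at least 2 cells were present, which gave 10 sums, and fitted by edgeR 4.0.16 (TMM, filterByExpr, quasi-likelihood test, pool as a block, Benjamini-Hochberg over 14697 genes, FDR 0.05) in R 4.3.3. DESeq2 1.42.0 was an alternative. Classes of a pool were sorted together, and their deviations from the class means correlated at 0.045 to 0.352 within pools and at -0.238 to 0.097 between them, so the pool was kept as a block. The study's methods give 3 mice, but the labels do not tie pools to them, and p-values measure the spread between pools. The scripts were tested on simulated data.

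Members are described without a test. Shares carry exact (Clopper-Pearson) 95% intervals, ratios carry counting intervals, and a sum of 0 reads was set to 3 reads for a lower bound (any sum under 3 in the mean log2 ratios). Limits on shares of 0 take 3 cells. Without molecular identifiers, reads are not independent molecules, so intervals and floors cover counting error only. Genes outside the set are named where they were called within a list, were relatives of a member, or were among the 10 most like Gip. Sequences are from RefSeq promoter windows (GRCm38.p6), with 8 of 9 members matched.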

Additional observations from a re-analysis of the deposited data

Results flagged for a closer look

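Cells that failed the depth or mitochondrial filter entered no comparison, and several of the 8 genes stood above the sums of passed cells with neither hormone there. In SLX-11175, the 21 failed cells had 24.7 CPM of Entpd3 and 16.5 CPM of Pdzd3, each against 0 in the passed cells with neither, and 74.1 CPM of Cd24a against 48.9 CPM. In SLX-11179, the failed cells had 17.9 CPM of Moxd1 against 0, from 13 reads in 1 cell, and 101.7 CPM of Cd24a against 54.8 CPM. The order was the reverse for Cd24a in SLX-9703, at 1.27 against 42.3 CPM, and for Cd44 in every pool, at 11, 1.37 and 0.273 CPM against 20.8, 19.7 and 15.4 CPM. Pkib had 0 reads in the failed cells of every pool, against 3.39, 0.167 and 0.289 CPM. Fxyd6 likewise had 0 reads there, against 0, 0.333 and 4.89 CPM. In SLX-9703 the failed cells also had 0 reads of Entpd3 and Tekt2, against 0.0289 and 0.501 CPM. Of the 21 cells of SLX-11175, 3 had at least 10000 CPM of Gip. One of them, at 37269 CPM of Gip and 19155 CPM of Gcg, held 17 of the 27 Cd24a reads, another held 3 Entpd3 reads, and the third held 3 Pdzd3 reads and single reads of Moxd1 and Tekt2. Another failed cell, without 10000 CPM of Gip, held the highest Entpd3 level, 516 CPM. Pdzd3 stood at 19.2 CPM in the 9 failed cells of SLX-11179 against 9.17 CPM, and at 65.5 CPM in the 8 failed cells of SLX-9703 against 0.482 CPM. In SLX-9703, 430 and 279 of the 720 Pdzd3 reads came from cells with 59.96% and 49.9% mitochondrial reads and with 8247 and 14082 CPM of enterocyte markers, and none of its failed cells had 10000 CPM of Gip. Their part in these levels was not tested.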

How the results depend on the processing

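Each of the 8 genes was higher in Gip than in Gcg cells under all 14 alternatives computed for it. The median of the 8 log2 ratios, 5.96, fell to 3.13 with cells thinned to 20000 reads, where by construction fewer reads stand above the floor of 3, and ran from 4.98 to 6.29 with a pool left out. The mean log2 ratio of Cd24a ran from 1.66 without SLX-11179 to 2.96 without SLX-11175. Members among the 50 genes most like Gip numbered 5, 4 by Spearman's rho, in which Cd24a fell to rank 122, and 3 with a minimum of 50000 reads, since Moxd1 and Pdzd3 were then read in too few cells. The counts of genes called moved more. Between Gip and Gcg cells (32 higher, 60 lower) they were 131 and 228 without the low-count filter, 111 and 237 with thinned cells, and 289 and 458 by DESeq2. With a pool left out they ran from 14 to 44 and from 18 to 77, the fewest without SLX-11179 (14 and 18) and 27 and 33 without SLX-11175. Between Gip cells and cells with neither (60 higher, 158 lower) they were 127 and 496 without the filter, 101 and 285 with thinned cells, and 260 and 557 by DESeq2, and ran from 22 to 55 and from 65 to 152 with a pool left out (39 and 65 without SLX-11175, 22 and 65 without SLX-11179). With no replicate block the counts were 25 and 47, and 57 and 101, and Cck, Chgb, Scg2, Neurod1 and Reg3b lost their calls. Leaving out deep cells under 750000 reads, chosen after seeing the data, gave 29 and 55, and 54 and 164. The cause of these shifts was not tested. The median log2 fold change over all genes, -0.22, was -0.10 with RLE factors and 0 by DESeq2, and none of the 16 list genes called between Gip and Gcg cells changed direction under the alternatives computed for them. Gip/Gcg cells were not tested against Gcg cells, since only 1 pool gave a sum of 2 such cells, and the alternatives listed for that comparison were not run. Depth limits the shallow pools, in which a single read in a median cell is worth more than many of the levels seen in the deep pool.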
